A study of Mus musculus with 2 samples.

Results

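The genes described here are the expressed small nuclear RNA (snRNA) genes of mouse blood neutrophils. They were chosen as the genes whose transcript type is snRNA in the GENCODE M21 transcript table and whose expected count was at least 10 in both libraries. An expected count is the number of reads that the authors' quantification gave to a gene, with reads that match several genes split between them. This rule kept 42 genes of 1383 annotated snRNA genes, which stand among 55536 genes in all. Across all genes, 14222 reached the same minimum in both libraries, or 25.6%. The counts therefore chose the members, and their levels are given as a description.

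The series holds 2 total RNA libraries from neutrophils isolated from the peripheral blood of C57BL/6J adults at 5 to 6 weeks of age, with no second condition. Both belong to a single untreated group of primary cells, numbered as biological replicates 1 and 2. The labels give both libraries the same donor identifier and no sex, so the spread between them may be technical. Each was made from 100 ng of RNA with a ScriptSeq v2 kit, and the labels name a size range of 200 to 1000 without a unit or the step it belongs to. The members' annotated transcripts were 107 to 191 nt long, below the lower of these sizes.

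The spliceosome removes introns from messenger RNA precursors with a set of small RNAs that each sit in a protein particle. U1 RNA pairs with the 5′ splice site and U2 RNA with the branch point, after which U4, U5 and U6 join as a preformed particle and U6 becomes part of the catalytic centre. U11 and U12 take the places of U1 and U2 on the rare introns of the minor spliceosome. Most of these RNAs are made by RNA polymerase II and carry a ring of Sm proteins, while U6 is made by RNA polymerase III and carries an Lsm ring. Mammalian genomes hold several functional copies of the major snRNA genes and many pseudogenes, most of them related to U6.

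Replicate 1 held 22647028 expected counts and replicate 2 held 21471719 in the M21 gene table, the main table here. All 10 neutrophil markers examined reached 1 TPM in each library, and their TPM summed to 3137 in replicate 1 and 3084 in replicate 2. TPM divides a count by the length open to reads and scales each library to the same total. Markers of other blood cells were present too. The TPM of the 10 B-cell markers, all detected, summed to 719 and 645, and that of the 8 red-cell markers, 5 of them detected, to 4329 and 4264 in replicates 1 and 2. Sums were 30.0 and 30.1 for 8 T-cell markers (7 detected) and 27.6 and 25.4 for 7 monocyte markers (5 detected), and the red-cell factor Klf1 was the lowest marker at 0 and 0.01. The part of these other cells in the snRNA levels was not tested. In bulk RNA, the number of cells of a type and the RNA per cell cannot be told apart.

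The members held 8.33% of the expected counts in replicate 1 and 11.4% in replicate 2 (mean 9.84 ± 2.15%, SD, n = 2). They took nearly all snRNA reads: 99.98% in replicate 1 and 99.93% in replicate 2. On the TPM scale they held 67.7% and 70.5% (mean 69.1 ± 1.99%). This large TPM share rests on the effective length, roughly the number of positions at which a fragment can start, which is far shorter than the transcript for such small RNAs. In replicates 1 and 2, this length was 2.02 and 2.42 nt for a 107-nt transcript, 23.1 and 26.8 nt for a 164-nt transcript, and 41.2 and 45.8 nt for a 191-nt transcript. One expected count was thus worth 5.07 and 4.21 TPM on a 107-nt gene, and 0.249 and 0.222 TPM on a 191-nt gene. With counts divided by the annotated length instead, the members' share was 39.1% and 47.6%. Of the other snRNA genes, 154 had an effective length of 0 in both libraries, the longest of them 96 nt.

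Sequence placed 38 members in a named family by the best match to a gene with a family name. There were 18 U1, 12 U2, 3 U5 and 3 U6 genes, and 1 each for U11 and U12. The remaining 4 matched no gene with a family name and are called unnamed here. They are grouped only for want of a match and need not belong to 1 family. By reads, U2 led with 54.0% of the members' counts in replicate 1 and 65.7% in replicate 2, followed by U1 with 41.1% and 30.6%. The 4 unnamed genes held 3.82% and 2.19%, U12 held 0.971% and 1.24%, and U11 held 0.169% and 0.170%. U5 held 0.0120% and 0.0963%, and U6 only 0.00758% and 0.00293%. On the TPM scale, which takes length into account, U1 stood above U2 in replicate 1, with 50.6% against 37.4% of the members' TPM. In replicate 2 the order was turned, with 40.3% for U1 and 50.4% for U2. The ratio of U2 to U1 TPM was 0.739 in replicate 1 and 1.25 in replicate 2, so these libraries do not fix which of the major RNAs is higher.

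**Figure D1:**
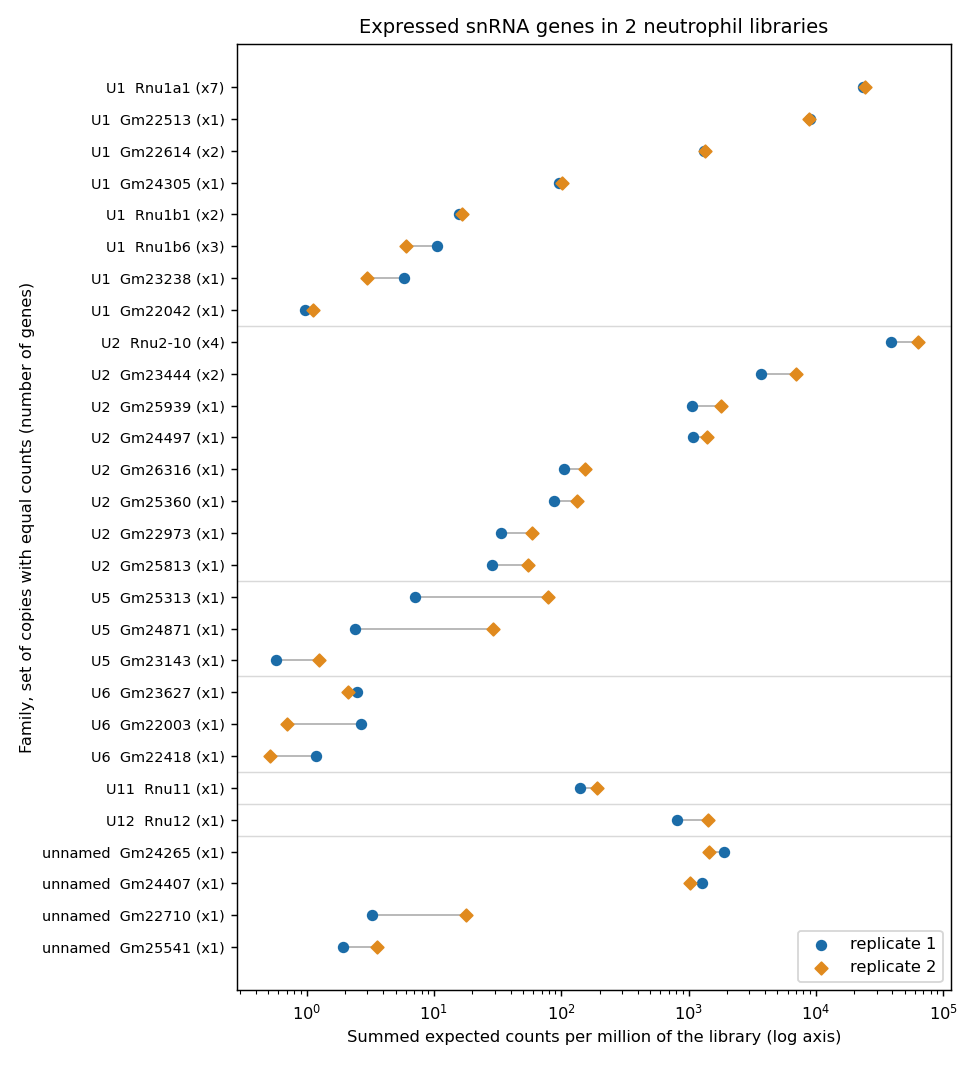
Summed CPM, expected counts scaled to a library total of 1000000 (log axis), for each of the 28 sets of snRNA genes with equal counts, with circles for replicate 1 and diamonds for replicate 2. Rows are grouped by family, the number of genes in a set stands in brackets, and in replicate 2 the values run from 0.512 for Gm22418 to 63956 for the Rnu2-10 set.

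The 42 genes formed 28 sets with equal expected counts in both libraries. Of these sets, 22 held 1 gene and 6 held 2 or more, 20 genes in all. The genes of each set shared a single transcript sequence, and the members held 28 different sequences. Within a set the reads cannot be told apart, so totals over a set are given and no weight is laid on the equal split. Totals of sets that differ by a few bases still depend on how shared reads were divided. Values below are set totals in CPM, that is, expected counts scaled to a library total of 1000000. The plot of CPM by set shows that U2 sets lay to the right in replicate 2, while the 4 highest U1 sets nearly coincided between libraries.

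Among the U1 genes the highest set was that of Rnu1a1, which comprises Gm22068, Gm22317, Gm22634, Gm23804, Gm25679 and Gm26444 as well. Its 7 copies summed to 23677 CPM in replicate 1 and 24423 CPM in replicate 2. The set lay in a pair of clusters in GRCm38 (mm10): Rnu1a1 itself at chr11:87422867-87423030 on the plus strand, in an intron of Tex14 with Gm22068 nearby, and the other 5 copies on chromosome 12. Gm22513, at chr12:54696782-54696945 on the plus strand of the same chromosome 12 cluster and outside any other gene, had 9043 CPM in replicate 1 and 8913 CPM in replicate 2. It differs from Rnu1a1 by the single change T60C, in which the base of Rnu1a1 stands first, the position counts from 1 at the 5′ end and the base of the other gene stands last. Gm24305, in the same cluster at chr12:54734555-54734718 on the minus strand, differs by A26G and had 96.4 CPM in replicate 1 and 102 CPM in replicate 2. Their sequences, from the GENCODE M21 transcripts, are shown because single bases separate the reads of these genes, and the capitals mark the positions at which the 3 genes differ.
Rnu1a1: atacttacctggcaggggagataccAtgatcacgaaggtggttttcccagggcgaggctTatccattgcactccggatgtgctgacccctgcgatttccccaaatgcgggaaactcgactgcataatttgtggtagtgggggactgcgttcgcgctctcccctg
Gm22513: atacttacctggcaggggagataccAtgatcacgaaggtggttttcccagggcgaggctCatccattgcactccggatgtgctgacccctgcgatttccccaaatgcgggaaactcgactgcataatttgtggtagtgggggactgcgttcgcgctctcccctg
Gm24305: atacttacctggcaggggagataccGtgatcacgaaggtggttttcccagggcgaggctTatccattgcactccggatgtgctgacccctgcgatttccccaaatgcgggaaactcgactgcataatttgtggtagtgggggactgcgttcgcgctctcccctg

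The 3 sequences are alike at all other positions, so only reads that cover position 26 or 60 separate them. Gm22513 held 26.5% of all U1 member counts in replicate 1 and 25.6% in replicate 2, and the Rnu1a1 set held 69.3% and 70.2%. These shares differed by less than 1 percentage point between the libraries. All 18 U1 members hold the letters ACTTACC, the stretch that pairs with the 5′ splice site, which 4.7% of all snRNA genes hold on the transcript strand.

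A second group of U1 genes lay on chromosome 3, where the U1b genes stand, variants described in mouse mainly in embryonic cells. Gm22614 and Gm25890, alike in sequence, summed to 1330 CPM in replicate 1 and 1339 CPM in replicate 2. They differ from the U1b gene Rnu1b1 by T33C. Rnu1b1 and Rnu1b2, an identical pair, summed to only 15.8 CPM and 16.5 CPM. Rnu1b6 with its identical copies Gm24830 and Gm26232 summed to 10.5 CPM in replicate 1 and 6.00 CPM in replicate 2. The lowest U1 member was Gm22042, with 0.963 and 1.11 CPM, on chromosome 4. The 8 U1 sets stood in the same order of level in both libraries.

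The U2 family had 12 members in 8 sets, all 191 nt long. Rnu2-10 and its identical copies Gm23849, Gm23971 and Gm24950 lie in a cluster on chromosome 11, Rnu2-10 at chr11:101658238-101658428 on the plus strand. Together they summed to 38819 CPM in replicate 1 and 63956 CPM in replicate 2, the highest set of all 28 in both libraries. They held 86.4% and 85.7% of the U2 member counts. Gm23444 and Gm23472, identical to each other, summed to 3712 CPM in replicate 1 and 7035 CPM in replicate 2. Gm25939 had 1057 and 1813 CPM, and Gm24497 had 1086 and 1397 CPM. The level of Gm24497 is uncertain, as its posterior mean counts, given further on, lay above its expected counts. The lowest U2 set was Gm25813, on chromosome 8, with 28.6 CPM in replicate 1 and 54.4 CPM in replicate 2. Gm23472, Gm24497 and Gm25939 lie in introns of the long non-coding gene D230017M19Rik on its strand, which had only 47.0 and 53.0 expected counts in replicates 1 and 2. The sequences of the U2 genes that lead the family, with Gm26316 from the chromosome 11 cluster, are shown because a few bases decide to which of them a read can be given. Capitals mark the positions at which the 5 differ.
Rnu2-10: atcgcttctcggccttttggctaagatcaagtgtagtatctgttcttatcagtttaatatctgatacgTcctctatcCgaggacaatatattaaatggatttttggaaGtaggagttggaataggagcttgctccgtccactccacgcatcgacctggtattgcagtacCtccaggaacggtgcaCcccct
Gm23472: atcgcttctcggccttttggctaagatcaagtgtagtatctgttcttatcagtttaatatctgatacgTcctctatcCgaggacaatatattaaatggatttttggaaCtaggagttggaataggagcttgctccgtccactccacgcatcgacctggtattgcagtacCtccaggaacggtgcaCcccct
Gm24497: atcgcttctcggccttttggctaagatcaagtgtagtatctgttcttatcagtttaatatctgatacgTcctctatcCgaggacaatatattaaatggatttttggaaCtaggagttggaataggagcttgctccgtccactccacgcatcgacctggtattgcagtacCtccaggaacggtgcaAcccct
Gm25939: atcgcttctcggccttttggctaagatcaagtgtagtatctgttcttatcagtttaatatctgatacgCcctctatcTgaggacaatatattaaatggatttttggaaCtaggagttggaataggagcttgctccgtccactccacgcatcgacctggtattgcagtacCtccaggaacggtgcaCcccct
Gm26316: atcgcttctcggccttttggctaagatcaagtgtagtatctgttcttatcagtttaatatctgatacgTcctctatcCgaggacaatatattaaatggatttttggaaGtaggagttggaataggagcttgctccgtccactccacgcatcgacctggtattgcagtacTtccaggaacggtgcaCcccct

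Against Rnu2-10, Gm23472 carries G109C, Gm24497 carries G109C and C186A, Gm25939 carries T69C, C78T and G109C, and Gm26316 carries C170T. Gm24497 is thus told from Gm23472 by C186A alone. All 12 U2 members hold GTAGTA, letters of the stretch that pairs with the branch point, as do 3.69% of all snRNA genes.

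U5 had 3 members of 116 nt. Gm25313 had 160 expected counts (7.06 CPM) in replicate 1 and 1700 (79.2 CPM) in replicate 2. It lies at chr9:65196572-65196687 on the minus strand, in an intron of Parp16 on the opposite strand. Gm24871 had 54.2 and 622 expected counts, or 2.39 and 29.0 CPM. Gm23143 had 13 and 27.0 expected counts, or 0.574 and 1.26 CPM. All 3 were lower in replicate 1 than in replicate 2. Rnu5g, the annotated U5 gene of that name, was no member, with 0 expected counts in replicate 1 and 222 in replicate 2. Its values depended on the table: an alignment-free table, described further on, gave it 838 and 3096 counts. Gm25099, also of the U5 family, had 2 and 130 expected counts.

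U6, the RNA of the catalytic centre, was nearly missing from the M21 gene table. Of 958 genes of the U6 family, 3 were members. Gm23627 had 56.1 expected counts in replicate 1 and 45.5 in replicate 2 (2.48 and 2.12 CPM). Gm22003 had 60 and 15 (2.65 and 0.699 CPM), and Gm22418 had 26.9 and 11 (1.19 and 0.512 CPM). The whole family, members or not, summed to 443 expected counts in replicate 1 and 248 in replicate 2. Rnu6 itself had 0 in both libraries, and the 43 genes that carry its exact sequence, Rnu6 included, summed to 36.7 and 21.5. Rnu6-ps2 and the U7 gene Rnu7, which serves histone messenger RNA ends and not splicing, were at 0 in both libraries. Rnu7 is 62 nt long, and snRNA genes of up to 96 nt had an effective length of 0. Its 0 therefore cannot show that the RNA was absent. Gm22003 has an identical copy, Gm22756, which had 0 in both libraries in the M21 and M4 tables. The reads of this pair were thus not split evenly, and neither were those of the genes identical to Rnu6.

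Among the RNAs of the minor spliceosome, U11 and U12 each had a single member. No gene with a U4, U4atac or U6atac name was there to match against, so nothing is said here of whether these RNAs stand among the unnamed genes. Rnu12, at chr15:83149644-83149794 on the plus strand and 151 nt long, had 809 CPM in replicate 1 and 1413 CPM in replicate 2. Rnu11, at chr4:132270080-132270213 on the minus strand and 134 nt long, had 141 CPM and 193 CPM. Rnu11 overlaps an exon of the long non-coding gene Gm28872 on the opposite strand, which had 25 and 50 expected counts. Per length, Rnu12 stood at 11722 TPM in replicate 1 and 16246 TPM in replicate 2, and Rnu11 at 3746 and 3943 TPM, so that U12 was 3.13 and 4.12 times U11. Both genes lie far above the lowest major-family members, and Rnu12 alone had more reads than all U5 and U6 members together. In the sequences below, capitals mark a match to ATTTNTG, a form of the site bound by the Sm ring, in which N is any base.
Rnu12: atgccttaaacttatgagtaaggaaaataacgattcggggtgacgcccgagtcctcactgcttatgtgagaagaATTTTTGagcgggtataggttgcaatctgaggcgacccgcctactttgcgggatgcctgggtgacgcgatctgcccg
Rnu11: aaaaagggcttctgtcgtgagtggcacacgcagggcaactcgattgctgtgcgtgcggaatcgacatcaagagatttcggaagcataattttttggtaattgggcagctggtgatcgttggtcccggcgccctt

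Rnu11 holds no match to these letters. ATTTNTG was found on the transcript strand in 34 of 42 members, or 81.0%, and in 20.5% of all snRNA genes. The family make-up differs: all 1383 snRNA genes include 208 of U1, 54 of U2 and 958 of U6. These 2 shares therefore do not compare members with other genes of the same family. It was present in 18 of 18 U1 genes, 12 of 12 U2 genes, Rnu12 and 3 of the 4 unnamed genes. None of the 3 U5 or the 3 U6 genes held it. Other forms of the Sm site were not searched, so a miss, as in Rnu11 or the U5 genes, does not show that the site is absent.

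The 4 unnamed genes were Gm24265 and Gm24407, both 141 nt long, Gm22710 with 125 nt and Gm25541 with 126 nt. Gm24265 and Gm24407 lie next to each other on the plus strand of chromosome 5, at chr5:115489459-115489599 and chr5:115490254-115490394. Gm24265 had 1895 CPM in replicate 1 and 1451 CPM in replicate 2, and Gm24407 had 1279 and 1018 CPM. Both were higher in replicate 1 in the M21 gene table, opposite to every U2 set. Gm22710 had 3.26 CPM in replicate 1 and 17.97 CPM in replicate 2, and Gm25541 had 1.94 and 3.59 CPM. The neighbouring pair differs by G88A and C99A, with the base of Gm24265 first, and capitals mark these positions.
Gm24265: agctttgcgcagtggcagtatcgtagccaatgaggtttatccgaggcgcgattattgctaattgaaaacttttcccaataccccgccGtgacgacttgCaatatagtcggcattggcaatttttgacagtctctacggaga
Gm24407: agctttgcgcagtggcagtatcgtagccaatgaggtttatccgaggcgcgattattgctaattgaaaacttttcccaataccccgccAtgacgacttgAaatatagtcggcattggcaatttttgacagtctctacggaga

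Gm22710 lies within an exon of 2900060B14Rik, a gene annotated as antisense on the same strand, which had 227 expected counts in replicate 1 and 1693 in replicate 2. Gm22710 itself had 73.8 and 386 expected counts, so both were lower in replicate 1. The U5 gene Gm24871 lies in the same way within an exon of B930036N10Rik, which had 536 and 644 expected counts. A read from inside either snRNA also matches the longer transcript, and how the reads divide between them was not tested. The 2 shorter unnamed genes are shown for reference, with the match to ATTTNTG in capitals.
Gm22710: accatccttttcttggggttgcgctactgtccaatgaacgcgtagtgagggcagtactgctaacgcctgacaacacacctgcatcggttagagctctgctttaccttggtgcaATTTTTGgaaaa
Gm25541: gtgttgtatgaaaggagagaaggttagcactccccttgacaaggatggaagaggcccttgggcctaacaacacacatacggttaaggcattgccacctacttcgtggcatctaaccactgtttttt

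Of the 42 members, 27 overlapped no other annotated gene. Introns of another gene held 6 members on the same strand and 6 on the opposite strand, and exons held 2 and 2, with Gm22710 counted for both of its partners. By chromosome, 9 members lay on chromosome 12, 8 on chromosome 11, 7 on chromosome 3 and 6 on chromosome 1.

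Between the libraries, the members together had 83256 CPM in replicate 1 and 113615 CPM in replicate 2. The ratio of replicate 1 over replicate 2 was 0.733, with a 95% counting interval of 0.731 to 0.734. Such intervals are exact conditional binomial intervals of the count ratio and cover counting error alone. They take expected counts as observed reads and PCR copies of a molecule as separate reads, so they can be too narrow. With 1 library on each side there is no test. The families went different ways. U1 had a ratio of 0.982 (0.979 to 0.985), which is nearly even. U2 had 0.602 (0.601 to 0.604), and each of its 8 sets lay below 1, between 0.526 and 0.777. The highest of these set ratios was that of Gm24497, whose expected counts lay below its posterior means. U12 had 0.572 (0.562 to 0.583) and U11 had 0.732 (0.699 to 0.767). For U5 the ratio was 0.0916 (0.0796 to 0.105), the lowest of the families. U6 had 1.91 (1.43 to 2.58) and the unnamed genes 1.28 (1.26 to 1.29), though 2 of the 4 unnamed genes lay above 1 and 2 below. The directions of these family sums were the same with TMM factors, with DESeq2 size factors and with counts scaled to protein-coding genes. The median log2 ratio of all genes past the count minimum was 0.018 with library totals.

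**Figure D2:**
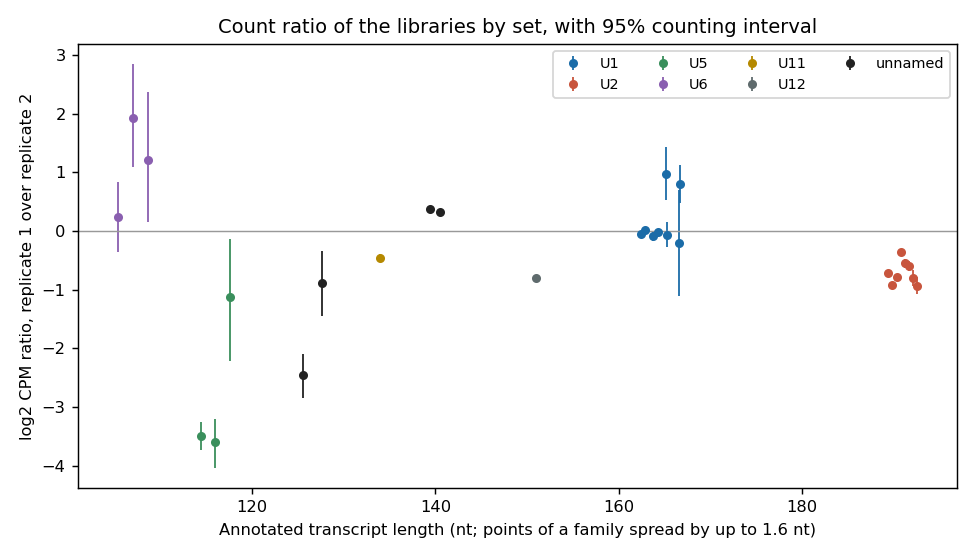
The log2 ratio of CPM, replicate 1 over replicate 2, for each of the 28 sets against annotated transcript length in nt, coloured by family, with 95% counting intervals as bars. The U2 sets at 191 nt lie below 0, the U1 sets of high count at 164 and 165 nt lie at 0, and the 2 lowest points are the U5 genes Gm24871 and Gm25313.

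Of the 39 members with at least 50 expected counts in the higher library, 1 was at least 2-fold higher in replicate 1, against 1.26% of all genes with that depth, and 3 were at least 2-fold higher in replicate 2, against 1.41%. The first was Gm22003, with a ratio of 3.79 (2.13 to 7.19). The other 3 were Gm24871 with 0.0823 (0.0611 to 0.109), Gm25313 with 0.0892 (0.0754 to 0.105) and Gm22710 with 0.182 (0.140 to 0.234). Gm22418, whose counts fall short of that depth, had 2.33 (1.12 to 5.20), and Gm23238, a U1 gene with 133 and 63.5 expected counts, had 1.97 (1.45 to 2.70). For Gm23238 the direction was turned in the alignment-free table, with 16.7 CPM in replicate 1 and 20.4 CPM in replicate 2. In the plot of the ratio by length, sets of the same family and length lay together where counts were high. In the M21 gene table the spread among lengths was not monotonic. U5 at 116 nt and U2 at 191 nt were lower in replicate 1, whereas U6 at 107 nt and the 141-nt pair were higher. Effective lengths were shorter in replicate 1 at every member length. Whether this bears on the ratios was not tested.

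The authors deposited 3 tables that quantify the same reads: gene tables on M21 and on the older GENCODE M4, and an M21 transcript table made without an alignment, called alignment-free here. They come from the same libraries, so their values are set side by side and are no replicates of each other. In the M4 gene table, set totals matched those of M21 closely: in 25 of the 28 sets the log2 ratio of M21 over M4 counts stayed within 0.1 in both libraries. The 3 others were U2 and unnamed genes. Gm24497 had 24589 expected counts in replicate 1 and 30004 in replicate 2 in M21, against 28830 and 44984 in M4. The Gm23444 set had 84075 and 151064 in M21, against 79838 and 136089 in M4. Their sum was nearly the same in both, 108664 and 181068 in M21 against 108668 and 181073 in M4, so the shortfall in Gm24497 was matched by the excess in the Gm23444 set, whose sequence differs from it by C186A alone. Gm22710 had 73.8 and 386 in M21, against 81.0 and 462 in M4.

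Some sets that M21 split evenly were split unevenly in M4. Others stayed even: the copies of Rnu1b6 had 79.0 each in replicate 1 and 43.0 each in replicate 2 of M4. The 4 copies of Rnu2-10 each had 219782 expected counts in replicate 1 and 343311 in replicate 2 in M21. In M4 they ranged from 200283 to 240453 in replicate 1 and from 328487 to 353295 in replicate 2, although the totals matched. The copies of Rnu1a1 each had 76601 and 74916 in M21, while in M4 they ranged from 68300 to 90412 in replicate 1 and from 66833 to 84584 in replicate 2. The highest copy was not the same in both libraries: it was Gm23804 in replicate 1 and Gm22634 in replicate 2. Rnu1b1 had 0 and its identical copy Rnu1b2 had 360 in replicate 1 of M4, against 179 each in M21. The alignment-free table gave equal values to the copies within each of these sets, as M21 did.

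**Figure D3:**
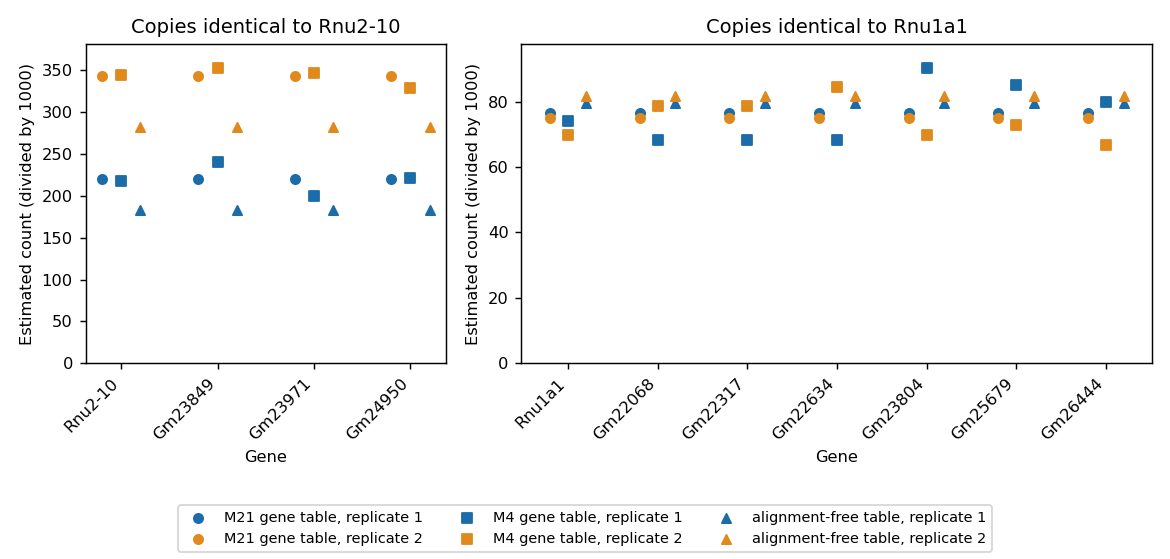
Estimated counts divided by 1000 (linear axis from 0) of each copy of Rnu2-10, left, and of Rnu1a1, right, in the M21 gene table (circles), the M4 gene table (squares) and the alignment-free table (triangles), with replicate 1 in blue and replicate 2 in orange. Copies are level within the M21 and alignment-free tables and scatter in the M4 table.

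The deposited posterior SD of a gene's count, part of the M21 gene table, had a higher median for genes that share their sequence with other members, although the ranges overlapped. Over the 20 genes in sets of 2 or more it was 4.34% to 82.5% of the posterior mean in replicate 1, with a median of 11.9%, and 3.74% to 83.1% in replicate 2, with a median of 10.4%. Over the 22 genes alone in their set it was 0% to 18.7% with a median of 0.565% in replicate 1, and 0% to 10.97% with a median of 0.575% in replicate 2. Gm22513 had a posterior SD of 29.1 counts in replicate 1 and 35.9 in replicate 2, on expected counts of 204808 and 191380, and Rnu11 had 0 in both. For Rnu2-10 it was 9567 and 14945 counts. The highest values in relative terms belonged to the Rnu1b6 set, where Gm24830 reached 82.5% in replicate 1. Among the genes alone in their set, Gm25313 had the highest in replicate 1, at 18.7%, and Gm24497 the highest in replicate 2, at 10.97%. The posterior means of Gm24497 were 33415 counts in replicate 1 and 55523 in replicate 2, against expected counts of 24589 and 30004. The printed TPM lay outside the authors' own interval for 9 members in replicate 1 and 8 in replicate 2, above the upper bound in 8 and 7 of these, so that interval does not bracket every estimate. Gm24497 lay below the lower bound in both libraries, with 6113 TPM against 6364 in replicate 1 and 6659 TPM against 9911 in replicate 2.

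The alignment-free table departed more. Of 27 sets with counts in both tables, 5 stayed within 0.1 on the log2 scale and 15 within 1 in both libraries. Among the 17 sets with a mean of at least 20 CPM the median of the larger absolute log2 ratio was 0.21, and among the lower sets it was 2.53. The Rnu1a1 set had 536208 and 524410 counts in M21, against 557022 and 571409 in the alignment-free table. For the Rnu2-10 set the values were 879130 and 1373240 in M21, against 731780 and 1130600. Gm22513 had the same share of the U1 counts, 26.5% and 25.6% in M21 against 26.3% and 25.2%. The 141-nt pair changed order: Gm24407 was 0.675 and 0.702 times Gm24265 in M21, against 1.61 and 2.50 times in the alignment-free table. There Gm24407 was no longer higher in replicate 1, with 2607 CPM in replicate 1 and 2661 CPM in replicate 2. Rnu12 had 18313 and 30342 in M21, against 25955 and 60886. Gm25313 had 160 and 1700 in M21, against 742 and 2331, and Gm24871 had 54.2 and 622, against 476 and 1696. Both U5 genes were still lower in replicate 1, though by less. The largest disagreements among sets were those of Gm22710, with 73.8 and 386 in M21 against 1828 and 5015, and of the Rnu1b6 set, with 237 and 129 against 1734 and 1587. Gm23627, with 56.1 and 45.5 in M21, was at 0 in the alignment-free table in both libraries.

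U6 was the family on which the tables differed most. Over all 958 genes, 443 and 248 counts in M21 and the same in M4 stood against 86898 and 55968 in the alignment-free table. As CPM of each table's own total, the alignment-free values were 153 times those of M21 in replicate 1 and 179 times in replicate 2. They made up 0.0235% and 0.0101% of all snRNA counts in M21, against 4.54% and 2.33%. U6 genes with at least 10 counts numbered 9 and 3 in M21, against 188 and 180. The alignment-free counts did not lie on the exact Rnu6 sequence: the 43 genes that carry it summed to 0 in both libraries there. They lay on other copies, foremost Gm26127 with 16290 counts in replicate 1 and 11299 in replicate 2, where M21 gave 0 and 3.23. Next came Gm25380 with 8670 and 5649, against 3 and 1 in M21, and Gm26071 with 6892 and 4588, against 2 and 1. The direction between the libraries was higher in replicate 1 in both tables, with family sums of 19.6 and 11.5 CPM in M21 and 3001 and 2066 CPM in the alignment-free table. Which U6 genes these reads came from was not tested. The members held 99.98% and 99.93% of all snRNA counts in M21, but 95.01% and 97.2% in the alignment-free table.

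**Figure D4:**
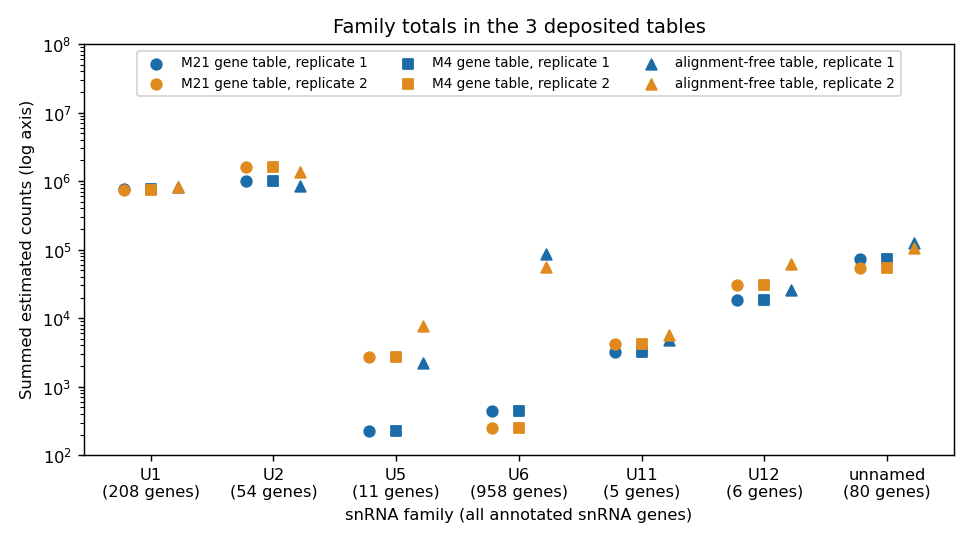
Summed estimated counts (log axis) over all annotated snRNA genes of each family in the M21 gene table (circles), the M4 gene table (squares) and the alignment-free table (triangles), with replicate 1 in blue and replicate 2 in orange. U1 and U2 totals lie close together, whereas U6 stands at 443 and 248 in both gene tables and at 86898 and 55968 in the alignment-free table.

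The members just inside the count minimum, by the lower library, were Gm22418 with 26.9 and 11, Gm23143 with 13 and 27.0, and Gm22003 with 60 and 15 expected counts in replicates 1 and 2. Just outside stood Gm23092 with 29 and 9.99, Gm23057 with 26.01 and 9.12, and Gm23686 with 9.01 in both. The first 2 of these are U6-family genes and the last is a U1 gene. The U1 gene Gm24924 missed the minimum with 2.70 expected counts in replicate 1 against 968 in replicate 2, but had 990 and 2397 in M4. Gm24924 and Gm26244, another U1 gene, reached the minimum in both libraries of M4, while Rnu1b1 fell below it there, so that 43 snRNA genes passed in M4 against 42 in M21.

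The protein genes of the spliceosome were counted as detected where they reached 1 TPM in each library, which 34.9% of all protein-coding genes did. The members held 67.7% and 70.5% of the TPM, which lowers the TPM of all other genes. Genes short of 1 TPM still had reads, such as Txnl4a with 311 and 340 expected counts and Snrnp35 with 71 and 36. All 8 genes of U1 particle proteins were detected, with a median of 11.3 TPM in replicate 1 and 10.4 TPM in replicate 2. Snrnp70, which binds the first stem-loop of U1, led them with 43.2 and 45.9 TPM, followed by the U1-associated Luc7l2 with 35.9 and 32.9 TPM, and Snrpa, a protein of the same particle, was lowest with 1.75 and 2.10 TPM. Of 14 U2 particle genes 13 were detected, with medians of 4.92 and 5.40 TPM. Sf3b1, which holds the branch-point helix, had 69.4 and 65.4 TPM, its partner Sf3b2 had 24.7 and 22.3 TPM, and Sf3b5 was lowest with 0.56 and 0.74 TPM.

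For the proteins of the U4/U6 and U5 particles, 16 of 17 genes were detected, with medians of 5.01 and 4.58 TPM. The helicase gene Snrnp200 led with 16.9 and 14.7 TPM, followed by Sart1 with 12.7 and 11 TPM, and Txnl4a was lowest with 0.87 and 0.88 TPM. Of 14 Sm and Lsm ring genes 13 were detected, led by mean level by Lsm4 with 11.5 and 8.42 TPM and Snrpe with 9.36 and 6.94 TPM (Lsm3 had 7.66 TPM in replicate 2), with Lsm2 lowest at 0.87 and 0.93 TPM. Of 9 minor spliceosome protein genes 7 were detected, led by mean level by Snrnp48 with 17.8 and 12.1 TPM and Zrsr1 with 8.31 and 6.85 TPM (Rnpc3 had 7.35 TPM in replicate 2), with Snrnp35 lowest at 0.80 and 0.38 TPM.

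Genes that make and assemble snRNAs were read in the same way. Of 13 snRNA transcription factor genes 11 were detected, led by Bdp1, a subunit of the RNA polymerase III factor TFIIIB, with 7.55 and 7.16 TPM and Ice1 of the little elongation complex with 6.13 and 6.30 TPM, and Brf2 had the lowest mean, with 0.96 and 0.64 TPM. Of 14 subunits of Integrator, which cuts the 3′ ends of RNA polymerase II snRNAs, 11 were detected, led by Ints6 with 13.2 and 8.98 TPM and Ints13 with 8.24 and 8.17 TPM, with Ints5 at 0.77 and 0.75 TPM. Of 23 genes of export, assembly and end processing 16 were detected. Ssb, the La protein that binds the ends of RNA polymerase III transcripts, led with 23.9 and 18.8 TPM, followed by Strap with 4.70 and 4.51 TPM, and Gemin8 of the SMN complex was lowest with 0.16 and 0.31 TPM.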

How the data were processed

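Total RNA of 2 neutrophil libraries of a single group was quantified by the authors. They deposited estimated, or expected, counts and TPM per gene on GENCODE M21 and on GENCODE M4, both on mm10, and estimated counts and TPM per M21 transcript in a table made without an alignment, per the file headers and the labels' file list. The programs of the quantification, their versions and the strand setting were not given in the sources used here. As the newer release, M21 gave the main gene table. Transcript type and length came from the transcript identifiers, and coordinates, overlaps and sequences from GENCODE M21 (GRCm38).

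Families were assigned with BLAST+ 2.17.0 (word size 7, E-value at most 1e-05, plus strand) to genes with an Rnu symbol. CPM scales counts to the library total. Counting intervals are exact conditional binomial 95% intervals of rounded counts (scipy 1.17.1, tested on simulated data). A count of 0 allows up to 3 counts, or 0.132 CPM in replicate 1 and 0.140 CPM in replicate 2. This limit holds only for genes with an effective length above 0. TMM factors came from edgeR 4.0.16 and size factors from DESeq2 1.42.0. No p-value was computed, since the series has no second condition. Named genes are the sets of at least 1000 CPM, the highest and lowest set of each family, those nearest the count minimum, those with extreme ratios between libraries or tables, genes with an Rnu symbol, and the 2 highest and the lowest gene of each protein list. Other genes are named for sequence or neighbourhood, with their values known. The members and lists were chosen with earlier results of these data known. Some sequences are not reported here.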

Additional observations from a re-analysis of the deposited data

Results flagged for a closer look

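A signal outside the main measurement was found in the U6-family genes that fall below the count minimum of the M21 gene table. These 955 genes summed to 300 expected counts in replicate 1 and 176 in replicate 2 there, against 86707 and 55886 estimated counts in the alignment-free table. The cause was not tested.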

How the results depend on the processing

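The number of expressed snRNA genes was 42, and 103 with any count above 0 in both libraries, 237 in the alignment-free table, and 48 with either replicate left out. Their share of the counts was 9.84% and 7.44% in the alignment-free table, with 8.33% to 11.4% when a replicate was left out. Their share of the TPM was 69.1%, against 50.4% in the alignment-free table and 43.4% of counts per annotated length, with 67.7% to 70.5% when a replicate was left out. The log2 ratio of the members' CPM, replicate 1 over replicate 2, was -0.449. It was -0.446 in M4, -0.454 in the alignment-free table, -0.469 with TMM factors, -0.462 with DESeq2 size factors and -0.472 scaled to protein-coding counts, and thus kept its sign.

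Family shares of the snRNA counts moved mostly with the alignment-free table, first as planned over the members and then over all snRNA genes, an alternative chosen after seeing the data. U5 moved to 0.122% and 0.218% from 0.0542%, U11 to 0.251% and 0.242% from 0.17% (0.17% in M4), U12 to 2.02% and 1.95% from 1.11%, and the unnamed genes to 5.7% and 5.47% from 3.01%. U2 moved to 50.4% over all snRNA genes from 59.8%. U6 moved to 0.0168% over all genes in M21 and to 3.44% over all genes in the alignment-free table, against 0.00526%. Without a replicate, shares ranged from 30.6% to 41.1% for U1, 54.0% to 65.7% for U2, 0.012% to 0.0963% for U5, 0.00293% to 0.00758% for U6, 0.169% to 0.17% for U11, 0.971% to 1.24% for U12 and 2.19% to 3.82% for the unnamed genes. Set levels were in CPM of each table's own total, which in replicate 1 was 22647028 in M21 and 21637190 in M4. Of the 28 levels, 6 moved by more than the spread between libraries in M4 and 18 in the alignment-free table. Among the 6 were Gm22513, with a mean of 8980 CPM in M21 and 9390 in M4, and Gm24497, with 1240 and 1760. Replicate 1 counts were 204808 in both for Gm22513, against 24589 and 28830 for Gm24497. None moved when copies were defined by identical sequence, which added only Gm22756, with 0 counts in M21. That setting could therefore not move a level. The causes of the moves were not tested. No paired analysis was possible because the series holds a single group. Depth limits the lowest members most: 3 of them fell out at a minimum of 20 counts.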

Other observations

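Other short structural RNAs are given for comparison in expected counts for replicate 1 and replicate 2, and 10 of the 13 listed were detected. The highest were Rn7s1 and Rn7s2, with equal counts of 865275 and 663400 each, and Rn7s6 had 30213 and 6521. Rn7sk, which holds back the elongation factor P-TEFb, had 457735 and 397055. Rpph1, the RNA of ribonuclease P, had 65137 and 64178, and Rmrp, the RNA of ribonuclease MRP, had 12911 and 20964. The Y RNA Rny1 had 17 and 4, and Rny3 had 42 and 123. The telomerase RNA Terc had 50 and 138, and the vault RNA gene Vaultrc5 had 84 and 301. Of the U3 genes, Rnu3b1 had 0 and 259, and Rnu3a had 0.05 and 0.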
